A study of Mus musculus with 24 samples.

Results

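The enzymes of glycolysis and of the pentose phosphate pathway, with the kinases that act on pyruvate dehydrogenase, were followed through the first 24 h of activation of CD8+ T cells. Members were chosen by symbol from a list of 35 enzymes, and 34 of the 35 were rows of the gene tables, out of 23420 genes in all. The symbol Tigar was not a row and is not analysed here under that name. Of the 34 members, 31 passed edgeR's filter on low counts and were tested among 11470 genes. The 3 that did not pass were Hk3, Aldoc and Pdk4.

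Glycolysis splits glucose into pyruvate and yields ATP and NADH, and lactate dehydrogenase regenerates NAD+ by reducing pyruvate to lactate. The pentose phosphate pathway branches off at glucose 6-phosphate, its oxidative arm yields NADPH and its non-oxidative arm yields ribose 5-phosphate for nucleotides. Pyruvate dehydrogenase kinases phosphorylate and inhibit the pyruvate dehydrogenase complex, which would otherwise pass pyruvate carbon into the mitochondrial citric acid cycle. Resting naive T cells are known to run at a low glycolytic rate and to raise it after T cell receptor and CD28 engagement, with many steps served by several isoenzymes encoded by different genes.

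The mice labelled cKO (mice 1 to 3) carried E8i-cre, both Tcf7 alleles floxed and the OT-I T cell receptor transgene. Mice labelled WT (mice 4 to 6) carried the same floxed alleles and the OT-I receptor but no E8i-cre, so the cre transgene and the loss of Tcf7 cannot be told apart. E8i is an enhancer of the Cd8a locus that drives cre in mature CD8+ T cells. CD8+ T cells of spleen and lymph nodes were taken with microbeads, sampled at 0 h, and then activated for 4, 8 and 24 h by plate-bound antibodies to CD3 and CD28 (1 ug/mL) with mouse IL2 (6 ng/mL). The labels give no age for the mice. Each of the 24 libraries was made with Smart-seq2 from 1000 sorted cells, 1 library per mouse and time, which gives 3 mice in each of the 8 groups. In what follows cKO and WT stand for libraries so labelled, and values within a group are listed in the order of the mouse numbers.

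The libraries held 5846265 to 9700397 expected counts. TPM, an abundance divided by transcript length and scaled to 1 total per library, is the scale of every level below, and every log2 fold change is a fitted difference from the count model. The gene-level Tcf7 value does not check the deletion, because transcripts that lack the floxed part can still be counted: Tcf7 was at 681 to 719 TPM in cKO and 499 to 567 TPM in WT at 0 h, and at 35.7 to 38.3 TPM in cKO and 62.6 to 77.0 TPM in WT at 24 h. It was at 251 to 271 TPM in cKO and 180 to 205 TPM in WT at 4 h, and at 73.6 to 127 TPM in cKO and 52.6 to 87.35 TPM in WT at 8 h. At 0, 4 and 8 h Tcf7 was thus not lower in the libraries labelled cKO, and directions between genotypes are those of the labels. At 24 h it was lower in cKO, with a log2 difference of -0.90 (edgeR adjusted p = 0.000221). The change of that difference from 0 h to 24 h was -1.23 (edgeR adjusted p = 0.00041). The CD8+ T cell markers (Cd3e, Cd3d, Cd3g, Cd8a, Cd8b1, Lck and Zap70) were detected, summing to 7033 to 7440 TPM in cKO and 6419 to 6823 TPM in WT at 0 h, and to at least 1454 TPM in every 24 h library. Counts of the ribosomal RNA Rn45s were 7.39 to 9.54% of a library at 24 h, against 16.2 to 18.9% at 0 h. With Rn45s removed, the members called at 24 h against 0 h were still 23 higher and 6 lower in each genotype, and the part of the falling marker sum in the results was not tested. Summed markers of myeloid cells stayed at or under 3.46 TPM in all 24 libraries, with S100a8 and S100a9 at 0 in each, and summed markers of CD4+ T cells stayed at or under 1.96 TPM. Over all times summed NK cell markers were at 2.17 to 10.4 TPM in cKO and 1.11 to 4.95 TPM in WT. Summed dendritic cell markers were at 2.97 to 9.72 TPM in cKO and 2.31 to 7.2 TPM in WT. At 4, 8 and 24 h the 2 genotypes did not overlap in either sum, with cKO higher. Of all genes tested, 16.4%, 10.6% and 13.1% did not overlap in TPM between genotypes at these times, in either direction. The CD8+ T cell sum was also higher in cKO without overlap at 0, 4 and 8 h, at 3115 to 3326 TPM in cKO and 2881 to 3012 TPM in WT at 4 h. The myeloid sum was lower in cKO without overlap at 0 h and higher at 4 h. Single genes carried much of the NK and dendritic cell sums. Eomes reached 9.27 TPM, while Klrb1c, Ncr1 and Klra8 reached at most 1.15, 0.62 and 0.27 TPM in any library. Zbtb46 and Xcr1 reached 9.31 and 6.01 TPM, while Itgax, Flt3 and Siglech reached at most 1.42, 0.52 and 0.47 TPM. Summed red cell markers reached 21.5 TPM in a cKO library at 4 h and 6.12 TPM in one at 0 h, against at most 0.56 TPM in any WT library. Cd79b, a subunit of the B cell receptor complex, was at 41.0 to 52.4 TPM in cKO and 32.4 to 35.6 TPM in WT at 0 h. It was at 3.28 to 5.32 TPM in cKO and 4.59 to 6 TPM in WT at 4 h. At 8 h it was at 2.57 to 4.6 TPM in cKO and 0.77 to 2.17 TPM in WT, and at 24 h at 14.4 to 15.9 TPM in cKO and 15.5 to 18.3 TPM in WT. The part of these markers in the results was not tested. In bulk libraries, fewer cells that express a gene and less of its RNA per cell cannot be told apart, and total RNA per cell was not measured.

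The promoters of Hk2, Ldha, Pgk1 and Pgam1 are shown first, as examples of upstream sequences with matches to motifs often discussed for glycolytic genes. These 4 were chosen after their rise and their matches had been seen. Each line gives the 250 bases before the RefSeq transcription start, 5′ to 3′ on the strand of the gene, in build GRCm38.p6. Capitals mark ACGTG on either strand (read as ACGTG or CACGT), the core of the hypoxia response element, and the E-box CACGTG, which contains it.

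Hk2 (chr6:82774455-82774704, − strand): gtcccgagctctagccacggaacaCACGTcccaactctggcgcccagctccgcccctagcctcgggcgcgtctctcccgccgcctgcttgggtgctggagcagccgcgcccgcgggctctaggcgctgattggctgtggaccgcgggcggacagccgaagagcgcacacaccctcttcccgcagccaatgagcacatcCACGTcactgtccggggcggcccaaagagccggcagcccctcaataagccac
Ldha (chr7:46845554-46845803, + strand, first of its listed starts): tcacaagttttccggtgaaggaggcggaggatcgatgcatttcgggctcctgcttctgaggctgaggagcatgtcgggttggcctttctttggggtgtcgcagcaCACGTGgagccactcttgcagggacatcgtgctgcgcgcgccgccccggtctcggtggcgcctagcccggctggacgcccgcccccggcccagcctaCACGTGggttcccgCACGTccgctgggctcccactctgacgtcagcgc
Pgk1 (chrX:106186850-106187099, + strand): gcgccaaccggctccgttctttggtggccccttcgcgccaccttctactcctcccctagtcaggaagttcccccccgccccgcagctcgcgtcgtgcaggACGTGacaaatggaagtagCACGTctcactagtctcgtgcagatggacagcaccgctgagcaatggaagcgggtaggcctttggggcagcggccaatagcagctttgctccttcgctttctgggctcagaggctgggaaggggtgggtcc
Pgam1 (chr19:41911621-41911870, + strand): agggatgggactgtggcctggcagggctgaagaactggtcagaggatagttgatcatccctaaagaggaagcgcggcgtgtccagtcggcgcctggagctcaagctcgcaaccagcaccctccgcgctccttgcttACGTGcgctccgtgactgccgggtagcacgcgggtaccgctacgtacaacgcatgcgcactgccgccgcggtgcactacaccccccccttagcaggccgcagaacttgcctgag

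The Ldha promoter held CACGTG at positions -145 and -48 from the start and a further CACGT at -34. Hk2 held CACGT at -226 and -52, Pgk1 held ACGTG at -150 and CACGT at -131, and Pgam1 held ACGTG at -114. All 34 members were found in the RefSeq promoter table. Searched on both strands from 250 bases before to 50 bases after each listed start, CACGTG was present for 5 of the 34 members (14.7%), against 8.09% of 27025 genes in the table. ACGTG, which every CACGTG also contains, was present for 16 of the 34 members (47.1%), against 21.8% of the genes. Members have more listed starts per gene, and counted per promoter CACGTG was in 9.26% of 54 member promoters, against 7.15% of 32851, and ACGTG was in 37.0%, against 19.6%. Among members not shown, Tpi1 and Eno1, which rose over 24 h, hold neither motif, while Pdk2 and Pfkfb2, which fell, hold CACGTG, and Hk1, which fell, holds ACGTG 2 times. A match of letters is a description of the sequence and was not tied to binding by any measurement here.

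After 24 h of activation most of the enzymes stood far above their level in resting cells. At 24 h against 0 h, 23 of the 31 tested members rose and 6 fell in cKO, and 23 rose and 6 fell in WT, by edgeR's quasi-likelihood test with Benjamini-Hochberg adjustment over all genes tested. A gene is called where the adjusted p is under 0.05, and only called changes are said to rise or fall. SE is the standard error of a fitted log2 fold change. Of all 11470 genes, 76.3% were called in cKO (37.3% higher and 39% lower) and 77% in WT (36.9% higher and 40.1% lower). The median log2 fold change of the members was 1.26 in cKO and 1.32 in WT, while that of all genes tested was -0.07 in cKO and -0.08 in WT. The 34 members together held 0.578 ± 0.0186% of all TPM in cKO and 0.579 ± 0.0121% in WT at 0 h (SD, n = 3 each). At 4 h they held 0.645 ± 0.025% in cKO and 0.683 ± 0.0176% in WT, at 8 h 1.06 ± 0.0709% in cKO and 1.15 ± 0.0278% in WT, and at 24 h 1.99 ± 0.0396% in cKO and 2.06 ± 0.0226% in WT. The share rose a little by 4 h, without overlap of the 0 h and 4 h libraries in either genotype, and grew mostly after 4 h. At 24 h Gapdh made up 34.5% of the members' summed TPM in cKO and 34.4% in WT, and Ldha 21.6% in cKO and 21.9% in WT.

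**Figure D1:**
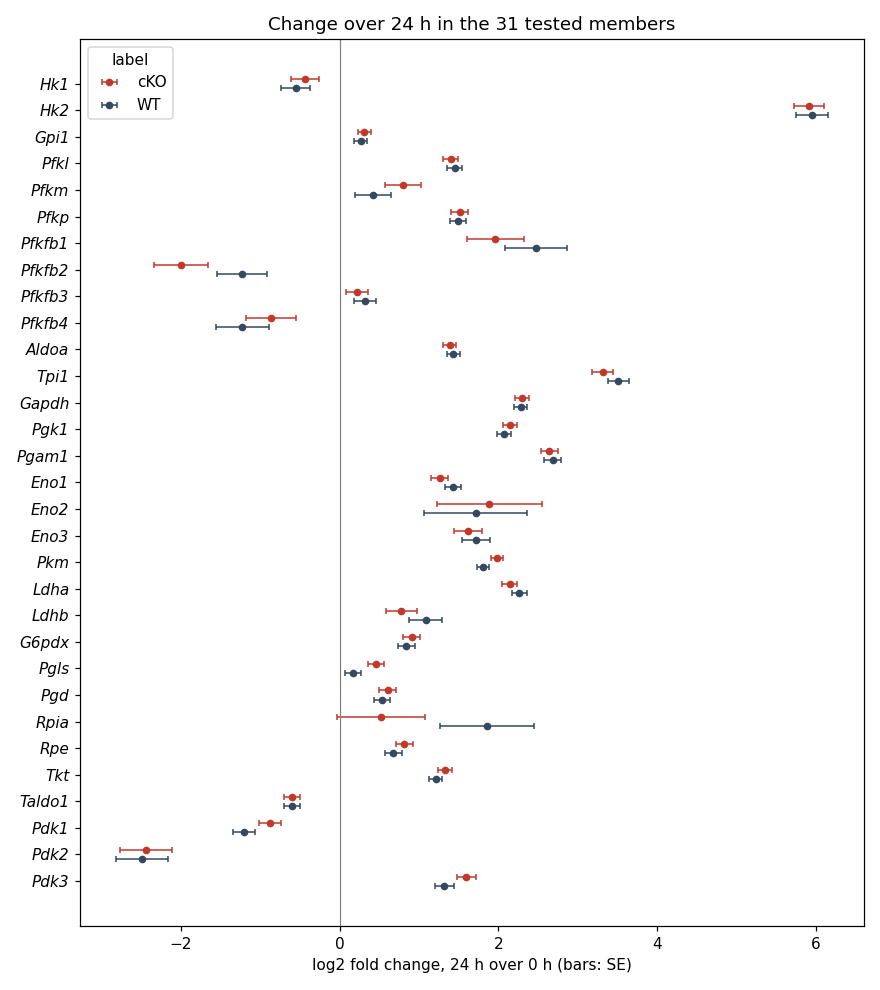
Fitted log2 fold change at 24 h over 0 h (horizontal axis) of the 31 tested members (vertical axis), with cKO above WT for each gene and bars of 1 SE. Hk2 lies farthest right at 5.91 in cKO and 5.95 in WT, and Pdk2 farthest left at -2.44 in cKO and -2.49 in WT.

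In both genotypes 21 members rose and 6 fell over 24 h, and none was called in opposite directions. The 6 that fell in both were Hk1, Pfkfb2, Pfkfb4, Taldo1, Pdk1 and Pdk2. Pfkm and Pgls passed the test in cKO and not in WT, and Pfkfb3 and Rpia passed in WT and not in cKO. None of these 4 passed the interaction test of the genotype difference at 24 h against that at 0 h, whose smallest edgeR adjusted p over the 31 members was 1. The Pfkfb3 call in WT was lost without mouse 4 or mouse 5.

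Hexokinase traps glucose in the cell as glucose 6-phosphate, and its inducible muscle and tumour form, Hk2 (chr6:82725025-82774454, - strand), showed the largest rise of all members. Resting cells held almost none of it, with 0.71, 0.28 and 0.26 TPM (cKO) and 0.47, 0.25 and 0.62 TPM (WT) at 0 h. By 4 h Hk2 was at 17.0, 17.5 and 18.5 TPM (cKO) and 20.8, 18.3 and 15.5 TPM (WT). Every 4 h library lay far above every 0 h library. At 8 h the values were 23.0, 24.5 and 29.1 TPM (cKO) and 31.7, 24.6 and 31.2 TPM (WT). At 24 h they were 24.6, 24.9 and 25.8 TPM (cKO) and 27.6, 25.8 and 25.9 TPM (WT). Most of the log2 rise of Hk2 was thus in place at 4 h: the log2 fold change at 4 h against 0 h was 5.41 in cKO (SE 0.198, edgeR adjusted p = 4.86e-23) and 5.47 in WT (SE 0.205, edgeR adjusted p = 1.01e-22). At 8 h against 4 h it was 0.57 in cKO and 0.72 in WT, both called, the cKO value not with limma on log2(TPM + 0.1). The last interval added nothing past the threshold, with -0.07 in cKO and -0.24 in WT. The counts behind the 0 h values were 6 to 23 per library, so the size of the fold is less certain than its direction.

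Hk1, the constitutive and broadly expressed hexokinase, went the other way. It averaged 8.02 ± 0.248 TPM (cKO) and 6.79 ± 0.247 TPM (WT) at 24 h, against 11.4 ± 0.535 TPM (cKO) and 10.3 ± 1.82 TPM (WT) at 0 h (SD, n = 3 each). The log2 fold change was -0.43 in cKO (SE 0.176, edgeR adjusted p = 0.026) and -0.56 in WT (SE 0.181, edgeR adjusted p = 0.00585). In cKO this call at 24 h against 0 h was lost in 6 of the 17 alternative analyses, among them those without mouse 1, 2 or 3. Hk1 was lowest at 8 h, when it averaged 4.98 ± 0.993 TPM (cKO) and 3.98 ± 2.16 TPM (WT). From there it was higher at 24 h, with a log2 fold change of 0.64 in cKO (SE 0.191, edgeR adjusted p = 0.00441) and 0.74 in WT (SE 0.198, edgeR adjusted p = 0.00179), and this call was lost without mouse 2 in cKO and without mouse 5 in WT. Hk3, a form found mainly in myeloid cells, had 1 to 15 counts in each 0 h library and 0 counts in all 6 libraries at 24 h, and was too low to test. Summed myeloid markers were 0.08 to 0.7 TPM in cKO and 0.23 to 0.66 TPM in WT at 24 h, against 1.73 to 2.35 TPM in cKO and 2.36 to 2.85 TPM in WT at 0 h, and whether they bear on Hk3 was not tested.

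Gpi1, which converts glucose 6-phosphate to fructose 6-phosphate, changed little. It averaged 306 ± 14.6 TPM (cKO) and 302 ± 10.5 TPM (WT) at 24 h, against 261 ± 10.2 TPM (cKO) and 260.2 ± 6.99 TPM (WT) at 0 h, a log2 fold change of 0.31 in cKO and 0.26 in WT, called in both.

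Phosphofructokinase commits the sugar to glycolysis, and is encoded by the platelet gene Pfkp, the liver gene Pfkl and the muscle gene Pfkm. Pfkp was the most abundant of them, with 136, 155 and 150.2 TPM (cKO) and 149, 142 and 149 TPM (WT) at 24 h. At 0 h it stood at 52.6, 61.6 and 49.6 TPM (cKO) and 56.0, 51.6 and 54.9 TPM (WT). The 24 h libraries lay above the 0 h libraries without overlap, and the log2 fold change was 1.51 in cKO (SE 0.101, edgeR adjusted p = 5.98e-16) and 1.49 in WT (SE 0.102, edgeR adjusted p = 9.63e-16). At 4 h, however, Pfkp had fallen to 38.6, 37.7 and 31.7 TPM (cKO) and 36.7, 35.9 and 37.2 TPM (WT), a log2 fold change against 0 h of -0.51 in cKO and -0.47 in WT. Pfkl did not dip with it: it averaged 33.8 ± 1.24 TPM (cKO) and 38.4 ± 1.88 TPM (WT) at 4 h, against 30.2 ± 3.43 TPM (cKO) and 28.7 ± 1.76 TPM (WT) at 0 h, and its log2 fold change of 0.25 in cKO and 0.52 in WT was called in both. The cKO call of Pfkl at 4 h was lost in 8 of 17 alternatives, among them those without mouse 1 or mouse 3. Pfkm, the scarce muscle form, averaged 6.66 ± 0.675 TPM (cKO) and 6.71 ± 0.729 TPM (WT) at 24 h, against 4.12 ± 1.28 TPM (cKO) and 5.15 ± 0.552 TPM (WT) at 0 h. Its log2 fold change at 24 h was 0.79 in cKO (SE 0.226, edgeR adjusted p = 0.002) and 0.42 in WT (SE 0.224, edgeR adjusted p = 0.0843), past the threshold in cKO alone, and without mouse 2 the cKO call was lost.

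The bifunctional PFKFB enzymes set the level of fructose 2,6-bisphosphate, the strongest activator of phosphofructokinase. Pfkfb3, the form with the highest kinase activity relative to its phosphatase activity, led the family and peaked early. It stood at 8.33, 7.64 and 6.6 TPM (cKO) and 6.57, 6.21 and 7.73 TPM (WT) at 0 h. After 4 h Pfkfb3 reached 11.8, 16.8 and 15.3 TPM (cKO) and 10.7, 9.64 and 11.2 TPM (WT), and after 8 h 16.4, 15.1 and 16.8 TPM (cKO) and 19.1, 14.4 and 17.3 TPM (WT). The 24 h values, 8.81, 8.37 and 7.44 TPM (cKO) and 8.92, 7.57 and 8.51 TPM (WT), were back near those of resting cells. The log2 fold change was 1.05 in cKO (SE 0.136, edgeR adjusted p = 2.82e-08) and 0.71 in WT (SE 0.142, edgeR adjusted p = 4.89e-05) at 4 h against 0 h. From 8 h to 24 h the log2 fold change was -1.01 in cKO (SE 0.133, edgeR adjusted p = 4.91e-08) and -1.13 in WT (SE 0.132, edgeR adjusted p = 4.43e-09). Pfkfb1, known from liver and muscle, averaged 5.03 ± 1 TPM (cKO) and 4.96 ± 0.57 TPM (WT) at 24 h, against 1.36 ± 0.39 TPM (cKO) and 0.877 ± 0.19 TPM (WT) at 0 h, and rose by a log2 fold change of 1.96 in cKO and 2.48 in WT. Pfkfb2 and Pfkfb4 fell over the same 24 h, with log2 fold changes of -2.0 in cKO and -1.23 in WT for Pfkfb2 and -0.86 in cKO and -1.22 in WT for Pfkfb4. All 3 of these forms were at or under a mean of 5.03 TPM in every group. Without mouse 1 or without mouse 3 the Pfkfb4 call in cKO was lost.

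Aldolase cleaves fructose 1,6-bisphosphate, and Aldoa, the form of muscle and most other tissues, carried the step. Aldoa had 1312, 1386 and 1310.3 TPM (cKO) and 1421, 1436 and 1401 TPM (WT) at 24 h. The 0 h libraries had 529.9, 576 and 514 TPM (cKO) and 537, 553 and 539.8 TPM (WT). The groups did not overlap, and the log2 fold change was 1.39 in cKO (SE 0.0817, edgeR adjusted p = 1.36e-17) and 1.43 in WT (SE 0.0818, edgeR adjusted p = 5.69e-18). Aldoc, the brain form, averaged at most 1.23 TPM in any group and was not tested.

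The trunk of the pathway from triose phosphates to pyruvate rose at each step by 24 h, but its members differed in when they did so. Tpi1 (chr6:124810586-124814296, - strand), which interconverts the triose phosphates, was the member with the second largest fold and rose late. Its level was 95.2, 96.1 and 74.9 TPM (cKO) and 79.6, 76.9 and 80.1 TPM (WT) at 0 h. The 4 h libraries still held 76.2, 74.2 and 62.0 TPM (cKO) and 66.8, 75.2 and 81.3 TPM (WT). Its 4 h and 0 h values did not differ past the threshold, with log2 fold changes of -0.25 in cKO and 0.01 in WT. At 8 h Tpi1 had 211, 257 and 189 TPM (cKO) and 225, 255 and 245 TPM (WT). At 24 h it had 849, 858 and 806 TPM (cKO) and 864, 898 and 855 TPM (WT), above every earlier library. The step from 4 h to 8 h was a log2 fold change of 1.67 in cKO and 1.76 in WT and that from 8 h to 24 h one of 1.88 in cKO and 1.74 in WT, all called. Over 24 h it was 3.31 in cKO (SE 0.135, edgeR adjusted p = 1.33e-18) and 3.51 in WT (SE 0.137, edgeR adjusted p = 4.79e-19).

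Gapdh (chr6:125161715-125166467, - strand), the NAD+-dependent glyceraldehyde 3-phosphate dehydrogenase, was the most abundant member. Resting cells held 1531, 1465 and 1403 TPM (cKO) and 1459, 1494 and 1548 TPM (WT). The 4 h libraries held 1651, 1568 and 1456 TPM (cKO) and 1613, 1648 and 1631 TPM (WT). These lie close together: the log2 fold change was 0.16 in cKO and 0.20 in WT, called in WT alone, and that call was lost in 6 of 17 alternatives, among them those without mouse 4, 5 or 6. At 8 h Gapdh had 2909, 3236 and 2816 TPM (cKO) and 2994, 3149 and 3263 TPM (WT). At 24 h it had 6758, 7051 and 6733 TPM (cKO) and 7069.7, 7182 and 6989 TPM (WT). The rise over 24 h was 2.30 in cKO (SE 0.0862, edgeR adjusted p = 2.87e-23) and 2.28 in WT (SE 0.0862, edgeR adjusted p = 3.43e-23). Gapdh and several other glycolytic genes have processed pseudogenes in the mouse genome, and how reads shared with such copies were divided by RSEM was not checked here, so their levels are uncertain to that extent.

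Pgk1, the first ATP-yielding kinase of the pathway, rose in every interval. It had 919.9, 896 and 887 TPM (cKO) and 894, 886 and 878 TPM (WT) at 24 h. Before activation it had 224, 216 and 206 TPM (cKO) and 234, 209 and 209 TPM (WT). The libraries did not overlap, and the log2 fold change was 2.14 in cKO (SE 0.0904, edgeR adjusted p = 8.3e-22) and 2.07 in WT (SE 0.0904, edgeR adjusted p = 2.04e-21). Pgam1, the phosphoglycerate mutase, had the steepest early rise of the trunk. Resting cells held 183, 172 and 149 TPM (cKO) and 161, 149.9 and 188 TPM (WT). It reached 506, 506 and 482 TPM (cKO) and 565, 534 and 499 TPM (WT) at 4 h, without overlap. The 8 h libraries held 609, 736 and 654 TPM (cKO) and 697, 759.6 and 743 TPM (WT). Those of 24 h held 1009, 1005 and 963 TPM (cKO) and 1044, 1017 and 1045 TPM (WT). Its log2 fold change was 1.65 in cKO (SE 0.104, edgeR adjusted p = 1.36e-15) and 1.77 in WT (SE 0.105, edgeR adjusted p = 2.06e-16) at 4 h against 0 h. Over 24 h it was 2.64 in cKO (SE 0.107, edgeR adjusted p = 1.64e-21) and 2.68 in WT (SE 0.107, edgeR adjusted p = 1.21e-21), so that most of the log2 change of Pgam1 came in the first 4 h, while almost all of that of Tpi1 came after them.

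Enolase, which makes phosphoenolpyruvate, behaved unlike its neighbours. Eno1 (chr4:150236721-150248879, + strand), the ubiquitous form, was high in resting cells at 669, 659.7 and 622 TPM (cKO) and 594, 597 and 611 TPM (WT). It fell at 4 h to 264, 242 and 224 TPM (cKO) and 215, 224 and 231 TPM (WT). All 6 mice had less Eno1 at 4 h than at 0 h, and the groups did not overlap. At 8 h Eno1 had 456, 478 and 379.5 TPM (cKO) and 398, 473 and 475 TPM (WT). At 24 h it had 1587, 1431 and 1405 TPM (cKO) and 1576, 1583 and 1532 TPM (WT). The fall was a log2 fold change of -1.34 in cKO (SE 0.106, edgeR adjusted p = 1.47e-12) and -1.34 in WT (SE 0.107, edgeR adjusted p = 1.54e-12). The later rise, at 24 h against 8 h, was 1.70 in cKO (SE 0.106, edgeR adjusted p = 5.82e-15) and 1.69 in WT (SE 0.106, edgeR adjusted p = 6.32e-15), and the net change over 24 h was 1.26 in cKO and 1.43 in WT, called in both. A near-identical gene model, Gm5506, can take reads of Eno1. It was at 0 to 200.3 TPM over all libraries and at 66.4 to 200.3 TPM among the WT mice at 24 h, so the counts of both were also added, an alternative chosen after seeing the data. At 4 h the summed Eno1 log2 fold change was -1.44 in cKO and -1.37 in WT. Over 24 h it was 1.19 in cKO and 1.41 in WT, all called.

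Eno3, the muscle enolase, followed the same course at a far lower level. It had 47.0, 42.5 and 39.7 TPM (cKO) and 45.6, 44.8 and 52.4 TPM (WT) at 24 h. At 0 h it had 13.9, 14.1 and 16.9 TPM (cKO) and 10.9, 15.8 and 17.6 TPM (WT), and at 4 h 5.87, 3.9 and 6.91 TPM (cKO) and 4.41, 7.67 and 6.29 TPM (WT). Eno3 thus fell and then rose past its starting level: the log2 fold change at 4 h against 0 h was -1.36 in cKO and -1.21 in WT, and over 24 h it was 1.62 in cKO and 1.71 in WT, all called. Eno2, the neuronal form, averaged at most 1.70 TPM in any group. Its call at 24 h against 0 h was lost without mouse 1 or mouse 2 in cKO and without mouse 5 or mouse 6 in WT.

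Pyruvate kinase closes the trunk, and Pkm, which encodes both the M1 and M2 forms that gene-level values do not separate, rose in every interval. At 0 h Pkm had 394, 389.6 and 397 TPM (cKO) and 463, 437 and 463 TPM (WT). After 4 h it had 564, 591 and 557 TPM (cKO) and 633, 674 and 605 TPM (WT). Each interval up to 24 h added to it. At 8 h Pkm had 963, 1091 and 1020.2 TPM (cKO) and 1051, 1042 and 1114 TPM (WT). At 24 h it had 1462, 1497 and 1449 TPM (cKO) and 1520.0, 1607 and 1476 TPM (WT). Its log2 fold change over 24 h was 1.98 in cKO (SE 0.0801, edgeR adjusted p = 2.56e-22) and 1.80 in WT (SE 0.0797, edgeR adjusted p = 2.93e-21).

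**Figure D2:**
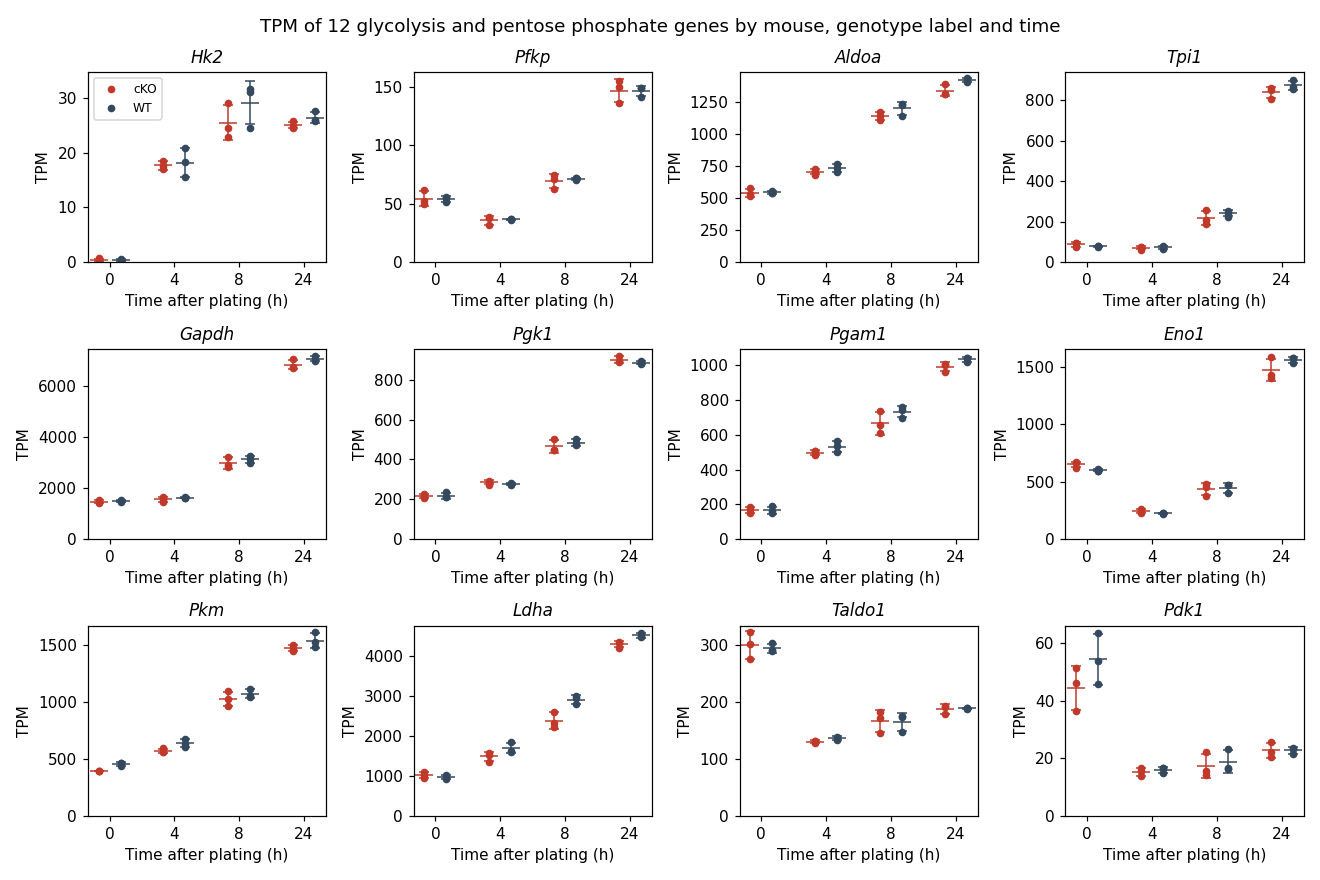
TPM (vertical axes) at 0, 4, 8 and 24 h (horizontal axes) of 12 members, with cKO left of WT at each time, points for single mice and bars for the mean ± SD of 3 mice. Hk2 has made most of its rise by 4 h and is higher again at 8 h. Eno1, Pfkp, Taldo1 and Pdk1 are lowest at 4 h, and Tpi1 and Gapdh climb mostly after 4 h.

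Lactate dehydrogenase was represented almost wholly by Ldha (chr7:46841475-46855627, + strand), the form that favours reduction of pyruvate. At 0 h Ldha had 1034, 1091 and 953 TPM (cKO) and 962, 918 and 1032 TPM (WT). After 4 h it had 1525, 1583 and 1360.0 TPM (cKO) and 1842, 1632 and 1606 TPM (WT). The 4 h libraries lay above all 0 h libraries of their genotype. At 8 h Ldha had 2329, 2608 and 2214 TPM (cKO) and 2943, 2989 and 2792 TPM (WT). At 24 h it had 4317, 4343 and 4201 TPM (cKO) and 4577, 4467 and 4500.3 TPM (WT). The change over 24 h was 2.14 in cKO (SE 0.095, edgeR adjusted p = 2.14e-20) and 2.26 in WT (SE 0.0954, edgeR adjusted p = 5.3e-21). Ldhb, the heart form, had 14.5, 17.5 and 20.4 TPM (cKO) and 11.1, 13.2 and 13.4 TPM (WT) before activation. After 4 h Ldhb had 10.8, 8.68 and 11.4 TPM (cKO) and 5.54, 3.34 and 7.53 TPM (WT). Ldhb fell in that interval, with a log2 fold change of -0.68 in cKO and -1.11 in WT, while Ldha rose, and without mouse 2 the call of Ldhb in cKO was lost. At 24 h Ldhb had risen to 31.4, 28.7 and 24.7 TPM (cKO) and 23.4, 24.9 and 29.7 TPM (WT), a log2 fold change against 0 h of 0.78 in cKO and 1.08 in WT, called in both.

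Of the 7 pentose phosphate members, G6pdx, Pgd, Rpe and Tkt rose in both genotypes over 24 h, Taldo1 fell in both, and Pgls and Rpia were each called in 1 genotype. The oxidative arm begins with G6pdx, the X-linked glucose 6-phosphate dehydrogenase, which averaged 60.6 ± 4.59 TPM (cKO) and 59.5 ± 2.53 TPM (WT) at 24 h, against 34.1 ± 3.62 TPM (cKO) and 34.3 ± 0.988 TPM (WT) at 0 h. It continues with the lactonase Pgls, at 189.7 ± 8.67 TPM (cKO) and 178 ± 6.1 TPM (WT) at 24 h, against 146 ± 15.6 TPM (cKO) and 162 ± 14.0 TPM (WT) at 0 h. Pgd, the phosphogluconate dehydrogenase, averaged 127 ± 3.05 TPM (cKO) and 126 ± 5.22 TPM (WT) at 24 h, against 88.6 ± 5.51 TPM (cKO) and 90.2 ± 7.56 TPM (WT) at 0 h. Over 24 h G6pdx rose by a log2 fold change of 0.91 in cKO and 0.84 in WT, and Pgd by 0.60 in cKO and 0.53 in WT. For Pgls it was 0.45 in cKO and 0.17 in WT, called in cKO alone, and at 4 h it was -0.51 in cKO and -0.59 in WT, called in both.

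In the non-oxidative arm, Tkt and Taldo1, the transketolase and transaldolase that exchange carbon with glycolysis, parted. Tkt averaged 338 ± 12.7 TPM (cKO) and 322 ± 7.26 TPM (WT) at 24 h, against 143 ± 4.05 TPM (cKO) and 144 ± 1.09 TPM (WT) at 0 h, a log2 fold change of 1.33 in cKO and 1.21 in WT, called in both. Taldo1 averaged 187 ± 8.21 TPM (cKO) and 188 ± 0.949 TPM (WT) at 24 h, against 299.6 ± 24.2 TPM (cKO) and 294 ± 7.8 TPM (WT) at 0 h. It fell, with a log2 fold change of -0.60 in cKO (SE 0.103, edgeR adjusted p = 3.12e-06) and -0.60 in WT (SE 0.104, edgeR adjusted p = 2.86e-06), and it was lower at 24 h in 6 of 6 mice. It was lowest at 4 h, when it averaged 130.1 ± 2.66 TPM (cKO) and 136 ± 3.03 TPM (WT). The epimerase Rpe averaged 43.0 ± 3.19 TPM (cKO) and 42.3 ± 3.17 TPM (WT) at 24 h, against 25.8 ± 2.13 TPM (cKO) and 27.3 ± 2.99 TPM (WT) at 0 h, a log2 fold change of 0.81 in cKO and 0.68 in WT, called in both. Rpia, the ribose 5-phosphate isomerase, was scarce, at 1.72, 1.05 and 0.62 TPM (cKO) and 1.3, 1.53 and 2.39 TPM (WT) at 24 h. Resting cells had 1.2, 0.41 and 0.85 TPM (cKO) and 0.31, 0.46 and 0.67 TPM (WT). The values of Rpia rest on 2 to 23 counts per library. Its log2 fold change was 0.52 in cKO (SE 0.554, edgeR adjusted p = 0.397) and 1.86 in WT (SE 0.593, edgeR adjusted p = 0.00517), called in WT alone.

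The pyruvate dehydrogenase kinases exchanged places. Pdk3, a form whose activity is known to be little affected by pyruvate, had 85.4, 97.1 and 87.8 TPM (cKO) and 91.7, 97.9 and 84.1 TPM (WT) at 24 h. At 0 h it had 30.2, 34.8 and 29.5 TPM (cKO) and 36.2, 36.2 and 40.8 TPM (WT), without overlap. The rise was 1.59 in cKO (SE 0.119, edgeR adjusted p = 1.11e-14) and 1.32 in WT (SE 0.118, edgeR adjusted p = 1.55e-12). Pdk1 was the leading kinase of resting cells, at 44.5 ± 7.59 TPM (cKO) and 54.4 ± 8.89 TPM (WT) at 0 h. It averaged 15.3 ± 1.38 TPM (cKO) and 16.0 ± 0.999 TPM (WT) at 4 h, 17.3 ± 4.3 TPM (cKO) and 18.8 ± 3.98 TPM (WT) at 8 h and 22.7 ± 2.69 TPM (cKO) and 22.8 ± 1.17 TPM (WT) at 24 h. Pdk1 fell, with a log2 fold change of -1.44 in cKO (SE 0.144, edgeR adjusted p = 9.63e-10) and -1.66 in WT (SE 0.144, edgeR adjusted p = 4.55e-11) at 4 h against 0 h, and stayed lower at 24 h, at -0.88 in cKO and -1.21 in WT, called in both. In the last interval it rose in cKO, by 0.34, and this call was lost with mouse as a replicate block and in 5 other alternatives. Pdk2 averaged 1.24 ± 0.674 TPM (cKO) and 1.22 ± 0.284 TPM (WT) at 24 h, against 7.13 ± 2.41 TPM (cKO) and 7.21 ± 1.62 TPM (WT) at 0 h, a log2 fold change of -2.44 in cKO and -2.49 in WT, both called. Pdk4 averaged at most 0.19 TPM in any group and was not tested.

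The share of each isoenzyme in the summed TPM of its family, a description without a test, showed which steps changed their leading form. Among hexokinases Hk2 made up 3.43 ± 2.07% in cKO and 3.98 ± 1.86% in WT at 0 h and 75.8 ± 0.975% in cKO and 79.5 ± 1.12% in WT at 24 h (SD, n = 3 each). The highest Hk2 share came at 8 h, at 83.2% in cKO and 88.0% in WT. Among pyruvate dehydrogenase kinases Pdk1 made up 53.2 ± 5.62% in cKO and 54.5 ± 4.44% in WT at 0 h, with Pdk3 at 38.0% in cKO and 38.3% in WT. At 24 h Pdk3 held 78.9 ± 2.51% in cKO and 79.1 ± 1.84% in WT and Pdk1 19.9% in cKO and 19.8% in WT. In these families the leading form at 24 h was not the one that led at 0 h.

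In the other families the form that led at 24 h was the one that led at 0 h. Pfkp held 61.3% in cKO and 61.6% in WT of summed phosphofructokinase TPM at 0 h, 50.3% in cKO and 47.6% in WT at 4 h, 56.8% in cKO and 58.8% in WT at 8 h and 64.1% in cKO and 64.0% in WT at 24 h, and at 4 h Pfkl held 47.4% in cKO and 49.8% in WT. Pfkfb3 remained first among the PFKFB forms at every time, but Pfkfb1 reached 32.0% in cKO and 30.9% in WT at 24 h, against 8.92% in cKO and 6.32% in WT at 0 h. Ldha held 97.9 to 99.8% of lactate dehydrogenase TPM over all groups. Summed hexokinase TPM averaged 33.1 ± 0.394 in cKO and 33.2 ± 0.816 in WT at 24 h, against 12.1 ± 0.738 in cKO and 11.6 ± 1.66 in WT at 0 h. Summed phosphofructokinase TPM averaged 229 ± 12.6 in cKO and 229 ± 3.51 in WT at 24 h, against 88.9 ± 8.08 in cKO and 88.0 ± 3.76 in WT at 0 h.

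**Figure D3:**
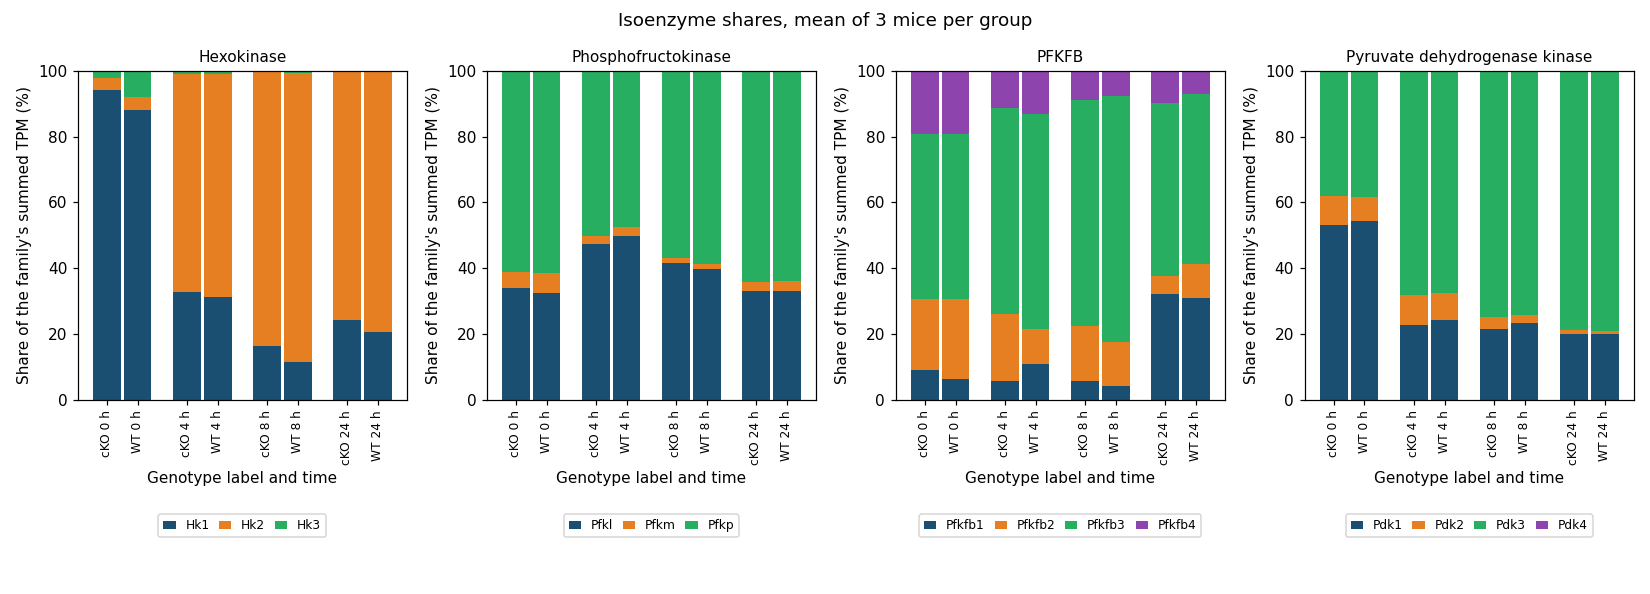
Share of each isoenzyme in the summed TPM of its family (vertical axes, %), mean of 3 mice, for cKO and WT at 0, 4, 8 and 24 h, cKO left of WT at each time. The hexokinase bars turn from mostly Hk1 at 0 h to mostly Hk2 from 4 h on, and the pyruvate dehydrogenase kinase bars from mostly Pdk1 to mostly Pdk3.

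Split by interval, the first 4 h divided the members, and the later intervals moved most of them up. At 4 h against 0 h, 11 members rose and 8 fell in cKO, where 57.2% of all genes were called (29.6% higher and 27.6% lower). In WT 12 rose and 9 fell, where 59% of all genes were called (30% higher and 29.1% lower). The same 10 members rose in both genotypes, namely Hk2, Pfkl, Pfkfb3, Aldoa, Pgk1, Pgam1, Pkm, Ldha, Tkt and Pdk3. The same 8 fell in both, namely Pfkm, Pfkp, Eno1, Eno3, Ldhb, Pgls, Taldo1 and Pdk1. With library sizes without scaling factors 9 rose and 10 fell in each genotype, and in cKO limma on log2(TPM + 1) and on log2(TPM + 0.1) gave the same counts. The WT call of Pdk3 was lost without mouse 4 or mouse 5. Pfkfb1 was called higher in WT at 4 h, a call that was lost with mouse as a replicate block and in 8 other alternatives.

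At 8 h against 4 h, 19 members rose and 2 fell in cKO, with 40.4% of all genes called (20.8% higher and 19.6% lower), and 19 rose and 2 fell in WT, with 41.6% called (21.9% higher and 19.7% lower). The 2 that fell were Hk1 and Pdk2 in both genotypes, and the cKO call of Hk1 was lost without mouse 2. At 24 h against 8 h, 22 rose and 3 fell in cKO, with 57.3% of all genes called (25.2% higher and 32.1% lower), and 17 rose and 1 fell in WT, with 58.7% called (24.7% higher and 34.1% lower). In WT the largest called log2 changes of that last interval were those of Pfkfb1 and Eno3, with Pfkfb1 at 1.83 in cKO and 2.27 in WT, and Eno3 at 1.72 in cKO and 2.24 in WT, all called. Of the 8 members that fell at 4 h in both genotypes, Eno1, Eno3, Pfkp and Ldhb stood above their 0 h level at 24 h in both, and Taldo1 and Pdk1 stood below it. The 4 h library of mouse 3 and the 8 h libraries of mice 2 and 5 stood apart from the others of their group, and without these 3 the calls at 8 h against 4 h in cKO were 15 higher and 2 lower, with Pgd, Rpe, Taldo1 and Pdk3 lost.

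**Figure D4:**
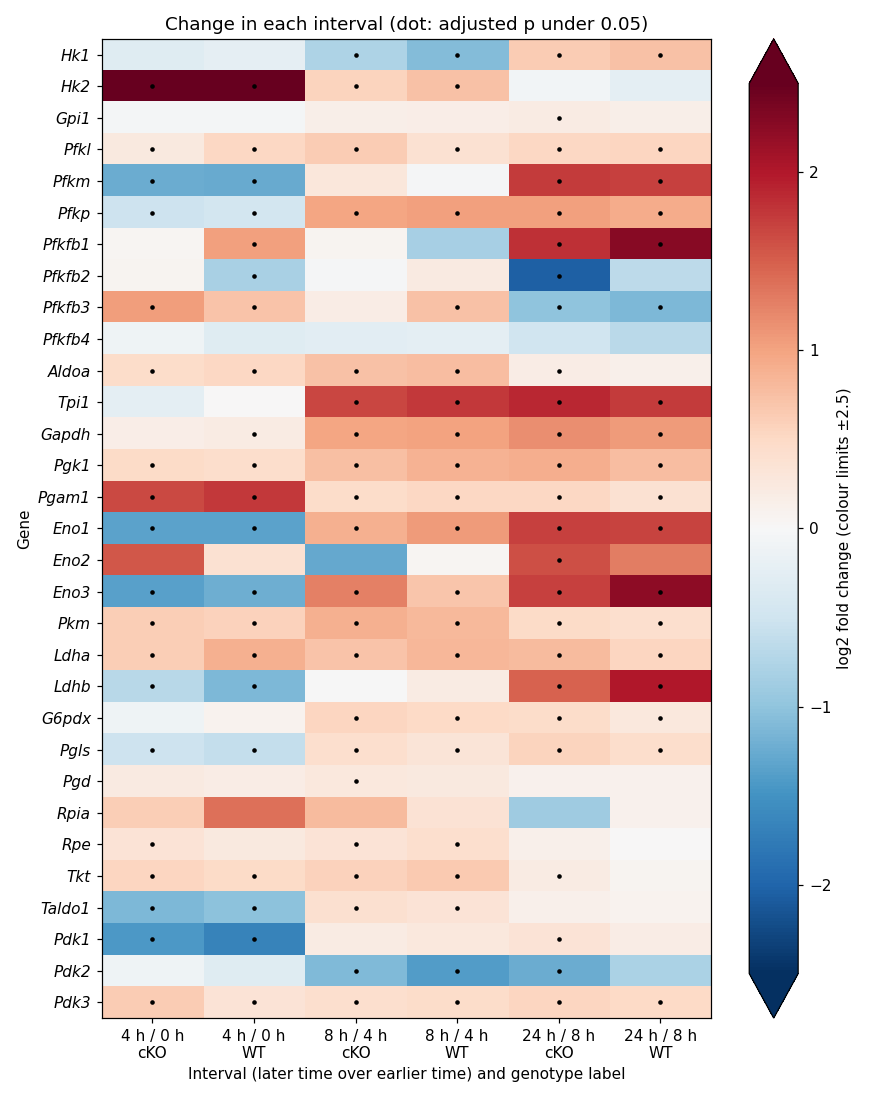
Log2 fold change (colour, limits −2.5 to 2.5) of the 31 tested members (rows) in each of the 3 successive intervals, for cKO and WT (columns), with dots on values called at an edgeR adjusted p under 0.05. Eno1, Eno3, Pfkm, Taldo1 and Pdk1 are blue in the first interval, while the column of 24 h against 8 h is mostly red.

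Between the genotype labels no member passed the test at any time. In libraries labelled cKO against those labelled WT, 0 of 31 members were called at 0 h, 4 h, 8 h and 24 h by edgeR, where 0.445%, 0.82%, 0.183% and 0.105% of all genes were called at these times. At an unadjusted p under 0.05 there were 3 members at 0 h, 6 at 4 h, 2 at 8 h and 1 at 24 h. The share of all genes at that level is not given here, so these counts are not read as a result about the members. DESeq2 also called 0 of the 33, 31, 31 and 34 members for which it gave an adjusted p at these times, and limma on log2(TPM + 1) called 2 at 4 h, Ldhb and Pfkfb2. Libraries labelled cKO and WT did not overlap in TPM for 4 of the 31 members at 0 h (14.5% of all genes), 8 at 4 h (16.4%), 3 at 8 h (10.6%) and 5 at 24 h (13.1%).

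The members with the smallest p at each time were as follows. Pkm at 0 h was lower in libraries labelled cKO, with the values given above, with a log2 difference of -0.24 (SE 0.0778, edgeR adjusted p = 0.257), and it was called under 2 of 17 alternatives. Ldhb at 4 h was higher in libraries labelled cKO, with no overlap and a log2 difference of 0.85 (SE 0.254, edgeR adjusted p = 0.109). Ldha at 8 h was lower in libraries labelled cKO, with no overlap and a log2 difference of -0.34 (SE 0.0912, edgeR adjusted p = 0.116). These log2 differences, of Ldhb at 4 h and of Ldha at 8 h, had opposite signs, neither past the threshold. At 0 h both genes had the higher mean in libraries labelled cKO. Ldha averaged 1026 TPM (cKO) and 970.5 TPM (WT), and Ldhb 17.5 TPM (cKO) and 12.6 TPM (WT). At 8 h Ldhb differed by 0.64 (SE 0.246, edgeR adjusted p = 0.332), and at 24 h Ldha differed by -0.07 (SE 0.0909, edgeR adjusted p = 1) and Ldhb by 0.12 (SE 0.188, edgeR adjusted p = 1). Pfkfb2 had the smallest p at 24 h, at 0.64, 0.88 and 1.06 TPM (cKO) and 1.02, 1.58 and 2.31 TPM (WT), a log2 difference of -0.85 (SE 0.357, edgeR adjusted p = 1).

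At 24 h the intervals of 2 SE around the log2 differences between genotypes, for the 19 tested members with a mean of at least 25 TPM, lay between -0.30 and 0.30, and the largest of these differences was 0.10 in size. These intervals lay between -0.60 and 0.40 at 0 h, between -0.44 and 0.29 at 4 h, and between -0.53 and 0.22 at 8 h.

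**Figure D5:**
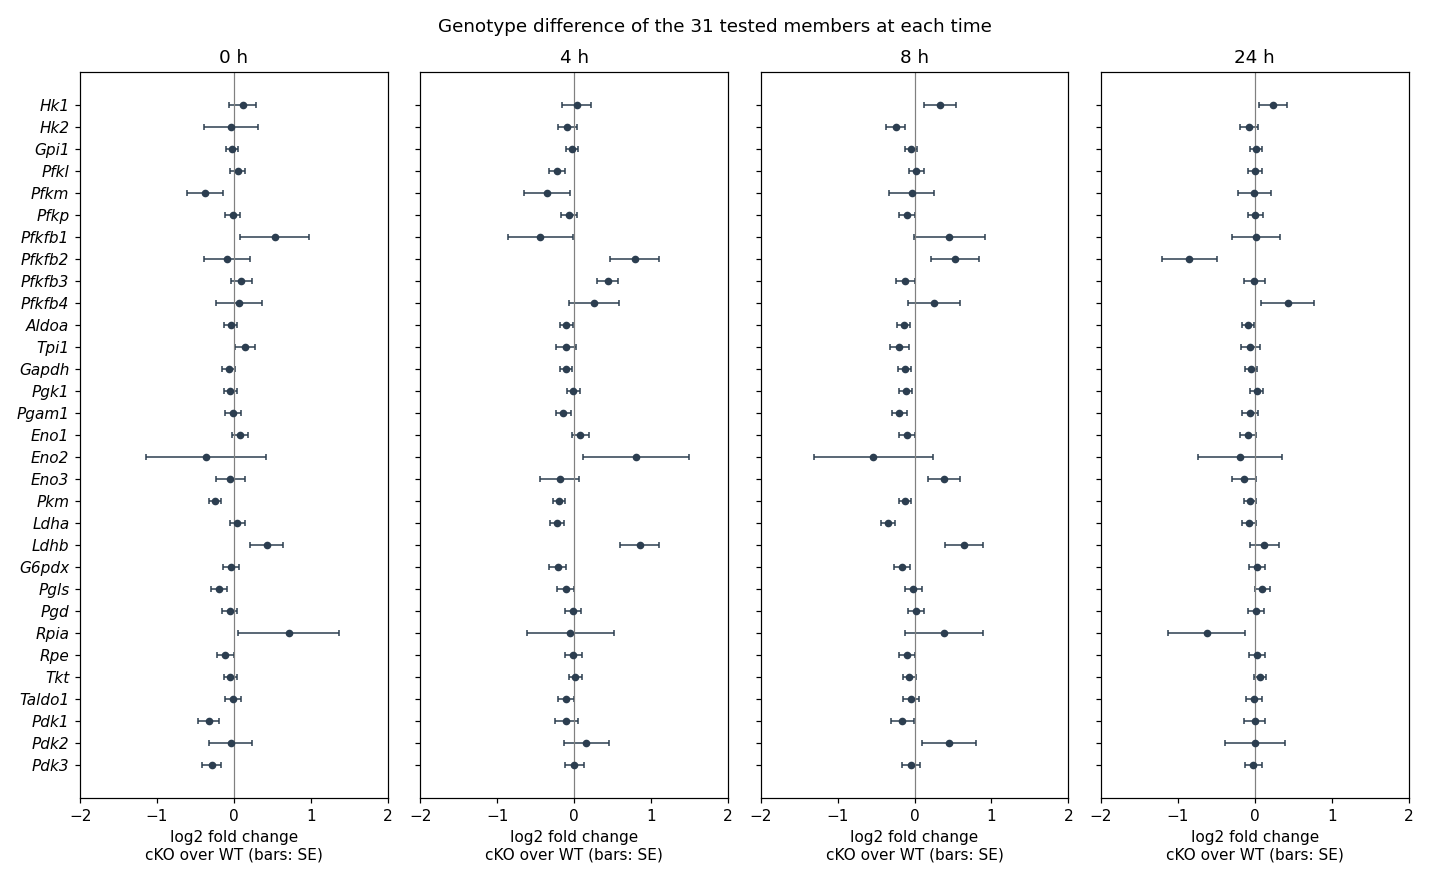
Fitted log2 fold change of cKO over WT (horizontal axes) of the 31 tested members (vertical axis) at 0, 4, 8 and 24 h, with bars of 1 SE. No member was called at any time, and at 24 h the values of the abundant members lie close to 0, while Pfkfb2 lies at -0.85.

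The genotype difference did not change over time for any member past the threshold. At 4 h, 8 h and 24 h against 0 h the interaction was called for 0 of 31 members by edgeR, where 0.00872%, 0.00872% and 0.0174% of all genes were called, and by DESeq2 for 0 of the 34, 21 and 34 members for which it gave an adjusted p. At an unadjusted p under 0.05 there were 1, 1 and 0 members, which without the share of all genes is again not read as a result. At 8 h against 0 h that member was Ldha, with an interaction of -0.39 (SE 0.129, edgeR adjusted p = 0.441).

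Other genes around these pathways were described from 6 lists, at 24 h against 0 h, where 76.3% of all genes were called in cKO and 77% in WT. Of 7 genes for glucose and lactate transport, 5 rose and 1 fell in cKO, and 5 rose and 2 fell in WT, with a median log2 fold change of 1.73 in cKO and 1.96 in WT, where that of all genes was -0.07 in cKO and -0.08 in WT. Slc16a1, a lactate transporter, averaged 61.8 ± 1.46 TPM (cKO) and 62.2 ± 5.44 TPM (WT) at 24 h, against 11.0 ± 0.626 TPM (cKO) and 12.3 ± 1.92 TPM (WT) at 0 h. Its chaperone Bsg averaged 610.4 ± 23.8 TPM (cKO) and 656 ± 13.7 TPM (WT) at 24 h, against 192 ± 7.92 TPM (cKO) and 172 ± 8.19 TPM (WT) at 0 h. The hexose transporter gene Slc2a6 changed by 5.14 in cKO and 4.62 in WT on the log2 scale. It averaged 11.7 TPM (cKO) and 6.39 TPM (WT) at 24 h. At 0 h it averaged only 0.363 TPM (cKO) and 0.29 TPM (WT), so the size of its fold is uncertain. Of 10 genes of the pyruvate dehydrogenase complex and pyruvate entry into mitochondria, 7 rose and 0 fell in cKO, and 7 rose and 2 fell in WT, with medians of 0.57 in cKO and 0.61 in WT. They included Dlat and Dld, 2 of its subunits, with log2 fold changes of 1.83 in cKO and 1.70 in WT for Dlat and 1.03 in cKO and 1.12 in WT for Dld, and the mitochondrial pyruvate carrier subunit Mpc1, with 1.13 in cKO and 1.15 in WT.

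Of 11 tested regulators of glycolytic genes, 3 rose and 5 fell in cKO, and 2 rose and 6 fell in WT, with medians of -0.25 in each. Txnip, an inhibitor of glucose uptake, averaged 6.95 ± 1.07 TPM (cKO) and 8.16 ± 0.926 TPM (WT) at 24 h, against 154 ± 12.6 TPM (cKO) and 165 ± 5.81 TPM (WT) at 0 h. Myc, a transcription factor known to bind E-boxes of glycolytic genes, averaged 159 ± 9.59 TPM (cKO) and 144 ± 13.9 TPM (WT) at 0 h, 1139.5 ± 84.6 TPM (cKO) and 1161 ± 39.8 TPM (WT) at 4 h, 925 ± 78.2 TPM (cKO) and 1003 ± 78.3 TPM (WT) at 8 h and 473 ± 6.4 TPM (cKO) and 441 ± 22.9 TPM (WT) at 24 h. Its log2 fold change at 24 h against 0 h was 1.66 in cKO and 1.66 in WT, and that of Mlxip, a glucose-sensing transcription factor, was -0.84 in cKO and -1.02 in WT, all called. Of 13 tested genes of gluconeogenesis and glycogen metabolism, 7 rose and 4 fell in cKO, and 7 rose and 3 fell in WT, with medians of 0.35 in cKO and 0.45 in WT. Pck2, the mitochondrial phosphoenolpyruvate carboxykinase, averaged 92.1 ± 14.4 TPM (cKO) and 87.5 ± 6.63 TPM (WT) at 24 h, against 3.11 ± 0.536 TPM (cKO) and 4.21 ± 0.647 TPM (WT) at 0 h. Pygm, the muscle glycogen phosphorylase, changed by -4.86 in cKO and -4.88 in WT and Ugp2, which makes UDP-glucose, by 1.00 in cKO and 0.89 in WT on the log2 scale.

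Of 7 other tested glycolysis genes, 2 rose and 2 fell in cKO, and 3 rose and 1 fell in WT, with medians of 0.29 in cKO and 0.12 in WT. Gpd2, the mitochondrial glycerol 3-phosphate dehydrogenase, changed by 1.25 in cKO and 1.39 in WT, its cytosolic relative Gpd1l by -1.71 in cKO and -1.51 in WT and the phosphatase Pgp by 3.71 in cKO and 3.44 in WT on the log2 scale. Of 5 other tested pentose phosphate genes, 1 rose and 2 fell in each genotype, with medians of -0.34 in cKO and -0.41 in WT. Prps1, which turns ribose 5-phosphate into phosphoribosyl pyrophosphate for nucleotide synthesis, averaged 149 ± 8.32 TPM (cKO) and 136 ± 4.33 TPM (WT) at 24 h, against 52.8 ± 3.96 TPM (cKO) and 48.5 ± 1.31 TPM (WT) at 0 h. The sedoheptulose kinase gene Shpk changed by -2.56 in cKO and -3.02 in WT and H6pd, the hexose 6-phosphate dehydrogenase of the endoplasmic reticulum, by -0.70 in cKO and -0.74 in WT on the log2 scale.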

How the data were processed

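Per the labels' protocols, RNA of 1000 sorted cells per library was amplified with Smart-seq2, without molecular identifiers, so counting error does not cover amplification. Per the submitters' processing notes, the authors used STAR, RSEM and DESeq2 on mm10, with tool versions not given in the sources used here. The deposited tables hold, per the file headers, the expected count, RSEM's estimate of reads per gene, with TPM and FPKM. FPKM was not used.

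After rounding, expected counts went into edgeR 4.0.16 (R 4.3.3), with filterByExpr over 8 groups, TMM scaling and a robust quasi-likelihood fit of 1 mean per group. It gave 15 comparisons, 4 of genotype, 8 of time and 3 interactions. Two-sided p-values had a Benjamini-Hochberg adjustment over the 11470 genes tested, and a gene was called at an adjusted p under 0.05. The SE is the absolute log2 fold change over the square root of F. DESeq2 1.42.0 and limma 3.58.1 served as alternatives. Replicates are separate mice per the labels.

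The members, the lists and the tests were chosen with earlier results of these data known. Values per mouse are given for the most abundant and the most changed isoenzyme of each family, the 6 most changed of the single-gene steps, and the member with the smallest p in each genotype comparison. Other members get means, and each list names up to 3 called genes.

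The same animals were sampled at each time per the labels, so libraries of a mouse are paired over time. Their deviations from the group means correlated by -0.0846 to 0.163 over 36 pairs of libraries. No libraries of a group held identical values. Each pair differed beyond counting noise (lowest chi-square over its degrees of freedom 3.21). This comparison does not cover amplification and so cannot show that the samples are distinct. Promoters came from RefSeq (GRCm38.p6) and gene positions from GENCODE vM21 (GRCm38). Protein sequences were not used here, and the summed B cell marker list is not reported here.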

Additional observations from a re-analysis of the deposited data

How the results depend on the processing

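Of 183 called member values in the time comparisons, 151 passed under every alternative run (16 to 18 each) and 32 were lost under at least 1. Counted once for each value under each alternative, 103 of 3114 calls were lost and 0 reversed. Between genotypes the count of called members was 0 throughout except for 1 at 0 h with library sizes without Rn45s and no scaling factors and with limma on log2(TPM + 0.1) (Pkm both times), for 2 at 4 h with limma on log2(TPM + 1) and 1 on log2(TPM + 0.1), and for 1 at 8 h without a filter on low counts (Ldha), which also gave 1 at 8 h in the interaction with 0 h. Leaving out each mouse in turn gave 0 to 1 at 4 h (Pfkfb3 without mouse 1) and 0 to 1 at 8 h (Ldha without mouse 2).

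With mouse as a replicate block, 0 members were called in each genotype comparison and each interaction, and 29 in cKO at 24 h against 0 h. The block ended the calls of Pdk1 at 24 h against 8 h in cKO and of Pfkfb1 at 4 h against 0 h in WT, and of no other member. Library sizes without scaling factors moved the median log2 fold change of all genes at 24 h against 0 h to -0.20 in cKO and -0.21 in WT. The cause of the lost calls was not tested.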

Other observations

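The row 9630033F20Rik, which RefSeq lists as an older symbol of Tigar, a phosphatase known to lower fructose 2,6-bisphosphate, was not counted as a member. It averaged 2.43 TPM in cKO and 1.81 TPM in WT at 4 h, and 4.23 TPM in cKO and 4.43 TPM in WT at 24 h, against 0.907 TPM in cKO and 1.22 TPM in WT at 0 h. At 24 h against 0 h the 9630033F20Rik log2 fold change was 2.27 in cKO (SE 0.264, edgeR adjusted p = 1.05e-09) and 1.90 in WT (SE 0.259, edgeR adjusted p = 3.47e-08). Its genotype difference was not called at any of the 4 times by edgeR, and was -0.44 at 0 h (SE 0.306, edgeR adjusted p = 0.841) and -0.07 at 24 h (SE 0.221, edgeR adjusted p = 1).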
